A study of Rattus norvegicus with 24 samples.

Results

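In neonatal rat lung, 284 of 30560 gene identifiers were both abundant and far higher than in liver. They were chosen from the vehicle libraries alone. A member had a mean of at least 100 CPM in vehicle lung, where CPM is a gene's count per 1000000 gene counts of its library. Its lung level plus 0.5 CPM was also at least 16 times its liver level plus 0.5 CPM. These thresholds were met by 288 identifiers. A list of 7 identifiers was left out by rule, of which 4 met the thresholds and 3 did not. The members are called abundant lung-restricted genes here only in the sense of lung against liver, since no other organ was measured.

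The study measured messenger RNA in whole lung and whole liver of wild-type Sprague Dawley rats on postnatal day 6. Injections were subcutaneous and began on postnatal day 1. There were 5 of them, 1 a day, and organs were harvested 24 hours after the last. The treatments were dexamethasone at 0.1 mg/kg, desisobutyryl ciclesonide at 1.25 mg/kg, or a vehicle of 2.5% ethanol, with 4 libraries for each tissue and treatment and 24 in all. The labels name no litter, so p-values measure the spread between these libraries. Because whole tissue was sequenced, fewer cells of a type and less RNA per cell cannot be told apart.

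Dexamethasone is a synthetic glucocorticoid that acts through the glucocorticoid receptor, a transcription factor that raises some genes and lowers others. Ciclesonide is an inhaled prodrug, and desisobutyryl ciclesonide is its active metabolite, which binds the same receptor. In the first days after birth the rat lung turns its saccules into alveoli by septation, a stage at which glucocorticoids are known to alter lung growth. Genes expressed far more in lung than in liver typically serve the gas-exchange epithelium, surfactant, the airways, the lung vessels and the connective tissue.

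The deposited files give Ensembl identifiers without gene names. None of the 30560 identifiers matched the RefSeq table of 47357 rat genes (0 matches), so members are described by identifier and no role is given to any of them. The tissue labels could not be checked against named marker genes for that reason. In the 16 drug libraries, which the rule did not use, the members took 10.7% to 14.7% of the counts of a lung library and 0.219% to 0.304% of a liver library. Lung libraries held 15839958 to 27881158 gene counts and liver libraries 15397992 to 26194384. The desisobutyryl ciclesonide libraries carried file labels numbered in a series of their own. The share of entries that the counting step listed as unaligned was 0.930% to 1.25% in desisobutyryl ciclesonide lung, 1.93% to 3.5% in dexamethasone lung and 2.32% to 3.01% in vehicle lung. In liver it was 0.801% to 1.40% with desisobutyryl ciclesonide, 1.88% to 2.41% with dexamethasone and 2.04% to 3.32% with vehicle. That drug and its library series cannot be told apart.

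The vehicle levels that chose the members are given as a description. The lung-over-liver ratio had a median of 38.3 and ran from 16 to 10755. It lay under 32 for 125 members, between 32 and 100 for 96, between 100 and 1000 for 59, and above 1000 for 4. The rule cuts a continuous range. The members nearest the lung threshold averaged 100.005, 100.105 and 100.523 CPM, and the nearest identifiers outside it 99.3, 98.1 and 97.7 CPM. At the ratio threshold the nearest members stood at 16.02, 16.10 and 16.12, and the nearest identifiers outside at 15.9, 15.7 and 15.7.

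As a sum, the members took a similar share of lung counts with dexamethasone and with vehicle and a larger one with desisobutyryl ciclesonide. The share was 12.4%, 11.2%, 12.2% and 10.7% in the 4 dexamethasone lung libraries. It was 13.8%, 13.1%, 14.7% and 14.3% with desisobutyryl ciclesonide and 11.4%, 11.9%, 10.9% and 11.5% with vehicle. The desisobutyryl ciclesonide libraries lay above all others, while the dexamethasone and vehicle libraries overlapped. The means were 11.6% ± 0.812 with dexamethasone, 13.98% ± 0.683 with desisobutyryl ciclesonide and 11.4% ± 0.439 with vehicle (SD, n = 4 each).

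The sum combined parts with different patterns. The 4 members with the highest mean in dexamethasone lung were ENSRNOG00000011177, ENSRNOG00000005825, ENSRNOG00000010761 and ENSRNOG00000020196. Together they made up 3.87% ± 0.499 of lung counts with dexamethasone, 3.39% ± 0.726 with desisobutyryl ciclesonide and 1.52% ± 0.159 with vehicle. The other 280 members made up 7.76% ± 0.531, 10.6% ± 0.203 and 9.90% ± 0.306 in dexamethasone, desisobutyryl ciclesonide and vehicle lung (SD, n = 4 each). The 4 were picked by their level in dexamethasone lung, so this split is a description. The median member stood at 169.8 CPM with dexamethasone, 243.6 CPM with desisobutyryl ciclesonide and 235.9 CPM with vehicle. The 10 highest members of each library held 43.6% ± 2.76 of the members' counts with dexamethasone, 37.9% ± 3.37 with desisobutyryl ciclesonide and 28.2% ± 1.53 with vehicle.

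**Figure D1:**
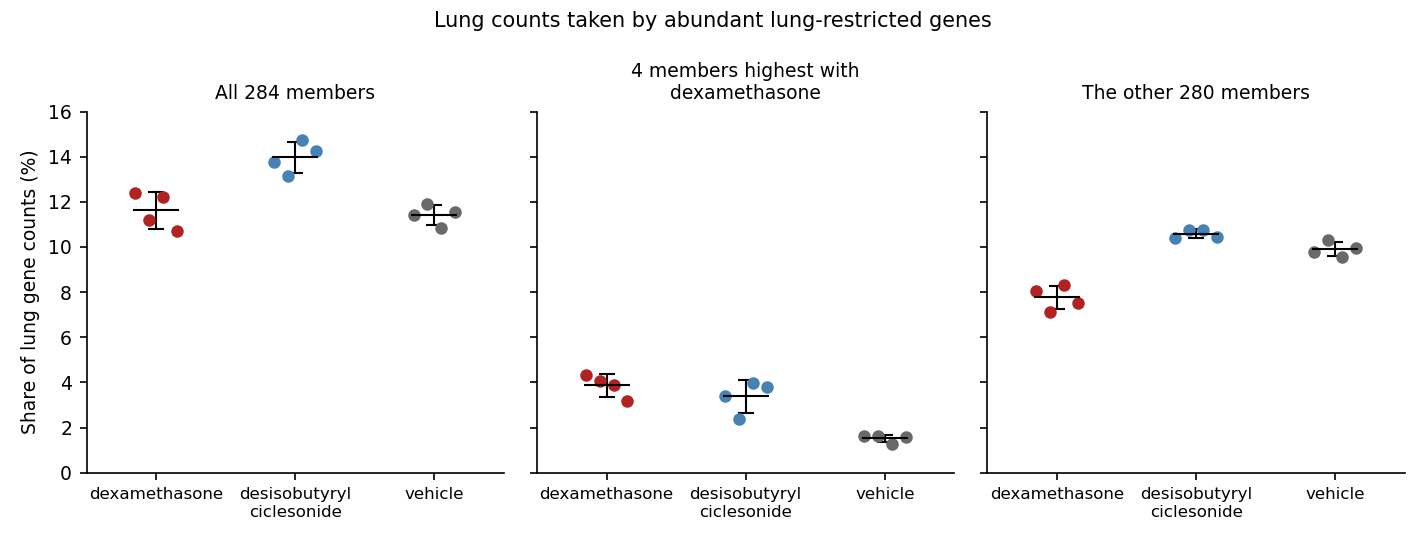
Share of lung gene counts (percent, vertical axis) taken by all 284 members, by the 4 highest in dexamethasone lung and by the other 280, with points for the 4 libraries of each treatment and a line with bars for the mean and SD. The 4 highest average 3.87% with dexamethasone and 1.52% with vehicle, and the other 280 average 7.76% with dexamethasone and 9.90% with vehicle.

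The plot of shares shows the whole set beside both of its parts. In the middle panel every drug library lies above every vehicle library. In the right panel every dexamethasone library lies below every library of the other treatments.

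The most abundant members of vehicle lung did not move as one. ENSRNOG00000011177 ranked first there. It had 12698, 9014, 10386 and 8998 CPM in dexamethasone lung, 12549.6, 7610.0, 12923 and 11893 CPM in desisobutyryl ciclesonide lung, and 5914, 5557, 4417 and 5620.2 CPM in vehicle lung. All 8 drug libraries lay above the vehicle libraries. The log2 fold change over vehicle was 1.03 with dexamethasone (SE 0.18, adjusted p = 0.000275) and 1.16 with desisobutyryl ciclesonide (SE 0.18, adjusted p = 0.000846). All adjusted p-values are from edgeR's quasi-likelihood test with Benjamini-Hochberg adjustment over all genes tested, and fold changes are on library sizes scaled by TMM.

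ENSRNOG00000005825 rose in a similar way. Its levels were 12490.0, 11752, 11721 and 8472 CPM with dexamethasone, 11419, 8516, 13158 and 13446 CPM with desisobutyryl ciclesonide, and 4969.9, 5115, 4665 and 5315 CPM with vehicle. The log2 fold changes over vehicle were 1.25 (SE 0.17, adjusted p = 3.33e-05) and 1.31 (SE 0.17, adjusted p = 0.000248). ENSRNOG00000010761 had 10859.7, 9630.3, 10092 and 9386 CPM with dexamethasone, 4434, 3831, 6654 and 7422 CPM with desisobutyryl ciclesonide, and 2171, 2188, 1523 and 2144 CPM with vehicle. Here the 3 treatments did not overlap, with log2 fold changes over vehicle of 2.41 for dexamethasone (adjusted p = 1.03e-06) and 1.57 for desisobutyryl ciclesonide (adjusted p = 0.000309).

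ENSRNOG00000020196, the last of the 4, had 7126, 10386, 6875 and 4752 CPM with dexamethasone and 5476, 3728, 7136 and 5418 CPM with desisobutyryl ciclesonide. Vehicle lung held 3025, 3347, 2258 and 2710.3 CPM of it, below every drug library. Its log2 fold changes over vehicle were 1.47 (SE 0.25, adjusted p = 0.000252) and 1.03 (SE 0.25, adjusted p = 0.00981). In liver, ENSRNOG00000011177, ENSRNOG00000010761 and ENSRNOG00000020196 reached at most 0.518 CPM in any library.

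Other abundant members fell with dexamethasone and had no call with the other drug. ENSRNOG00000045683, second in vehicle lung, had 1102, 316, 1316 and 579 CPM with dexamethasone, 6048, 6396, 6129.6 and 4539.9 CPM with desisobutyryl ciclesonide, and 5529, 5369, 4442 and 4947 CPM with vehicle. No dexamethasone library came near the other 8. The log2 fold change was -2.53 with dexamethasone (SE 0.34, adjusted p = 5.32e-05) and 0.28 with desisobutyryl ciclesonide (SE 0.32, adjusted p = 0.573). ENSRNOG00000016281, also among the most abundant, had 1993, 1816, 1985 and 1971 CPM with dexamethasone, 3481, 4457, 3700.2 and 3162 CPM with desisobutyryl ciclesonide, and 4076, 4505, 3689 and 4002 CPM with vehicle. Its log2 fold change was -0.97 with dexamethasone (SE 0.12, adjusted p = 1.30e-05), and -0.04 with desisobutyryl ciclesonide (SE 0.11, adjusted p = 0.815), where the libraries overlapped.

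**Figure D2:**
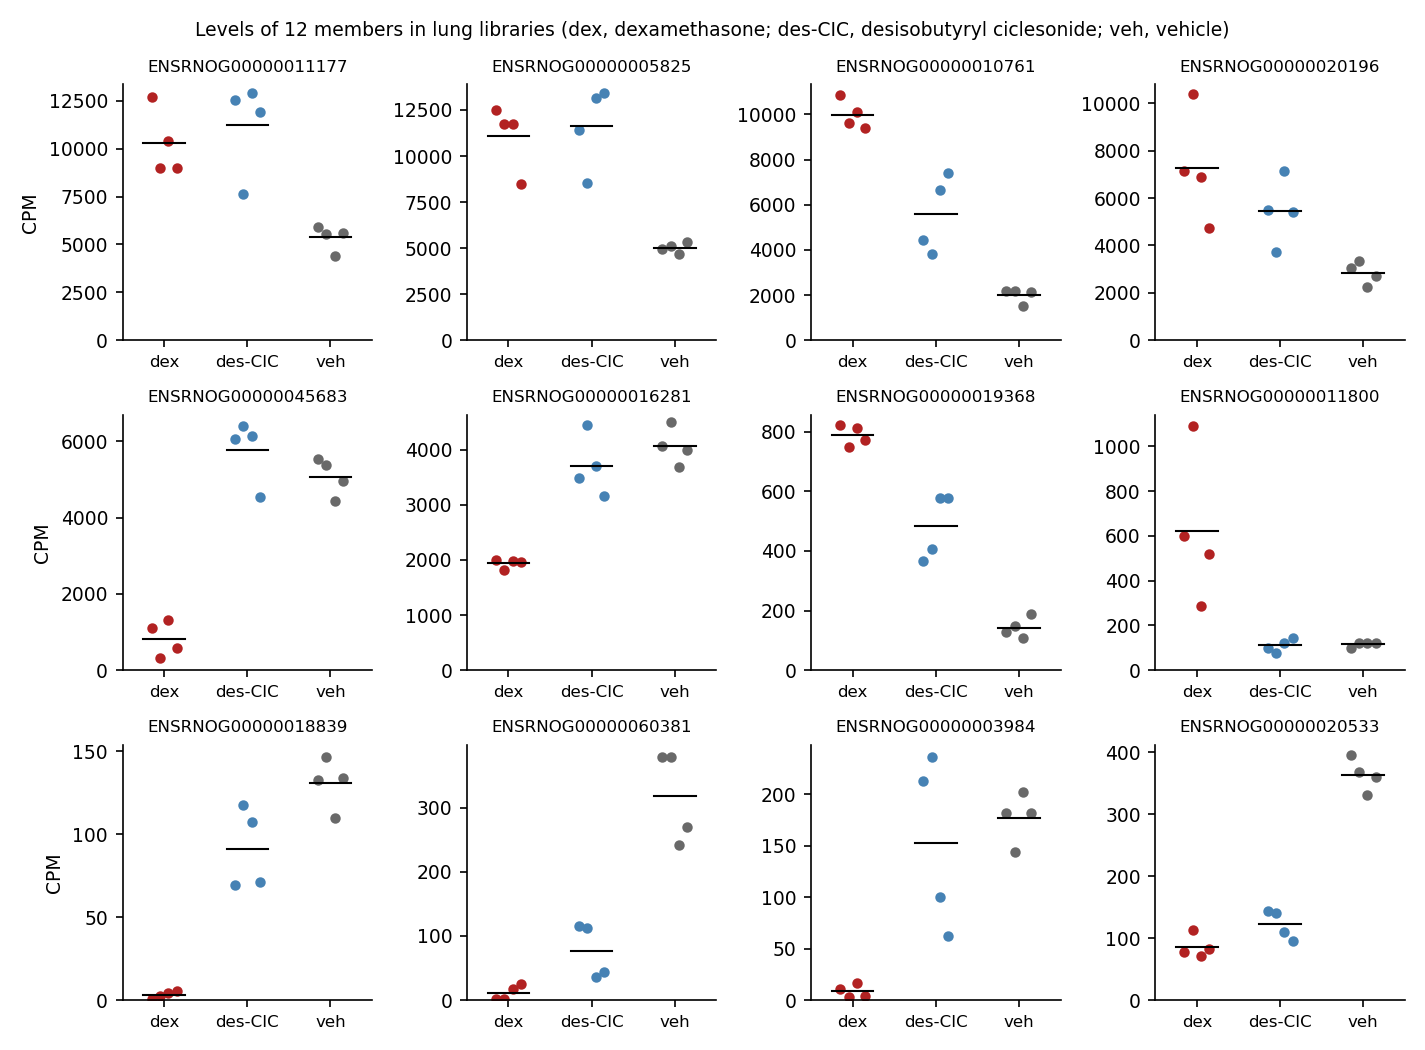
CPM of 12 members (1 panel each, linear vertical axis from 0) in the lung libraries of dexamethasone (dex), desisobutyryl ciclesonide (des-CIC) and vehicle (veh), with a point per library and a line at each mean. ENSRNOG00000011177 lies above the vehicle libraries in all 8 drug libraries, while ENSRNOG00000045683 is low in the 4 dexamethasone libraries alone.

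The plot of 12 members shows both kinds side by side, together with the members whose levels changed by the largest folds. Those are given next, comparison by comparison. The comparisons with vehicle share their vehicle libraries with each other and with the rule that chose the members, and a rule that asks for a high vehicle level leans toward falls. The background, the percent of all tested genes called in the same direction, stands beside each first count.

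With dexamethasone, more members were called lower than higher in lung, against the same vehicle libraries that chose them. That choice leans toward falls, so the counts describe the members and not lung-restricted genes at large. Of 284 members, 283 passed the filter on low counts. A lower level was called for 162 of them (57.2%), against 28.7% of all 16108 genes tested. A higher level was called for 58 (20.5%), against a background of 26.9%, and 63 had no call. Changes of at least 2-fold were called for 99 members downward (background 12.1%) and for 30 upward (background 12%). The median member changed by -0.48 on the log2 scale, and the median of all genes by -0.01. A list chosen by the same thresholds in the desisobutyryl ciclesonide libraries held 300 identifiers, of which 129 were called lower and 93 higher. The backgrounds for these counts are the same 28.7% and 26.9%. Of the 300, 61 were not members. The list was chosen on levels with a drug that acts on the same receptor, so its split is no independent support for a direction.

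Called falls outnumbered called rises in every band of vehicle level or ratio, except for the 4 members with the highest ratios. The bands are cut on vehicle values that the rule and the changes also use, so they are a description. Of all genes tested, 28.7% were called lower and 26.9% higher. Among members with a vehicle ratio above 1000, all 4 were higher, with a median log2 change of 1.70. These 4 include ENSRNOG00000011177, ENSRNOG00000010761 and ENSRNOG00000020196, whose rises are given above. Between 100 and 1000 there were 37 lower and 8 higher members of 59, with a median of -1.0. Between 32 and 100, 59 were lower and 16 higher of 96, with a median of -0.65. Below 32, 66 were lower and 30 higher of 125, with a median of -0.34. By vehicle lung level, the medians were -0.56 for the 183 members under 300 CPM, -0.39 for the 85 between 300 and 1000 CPM, and -0.64 for the 16 above.

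The largest rises with dexamethasone, among called members whose libraries did not overlap, were those of ENSRNOG00000019368 and ENSRNOG00000011800. ENSRNOG00000019368 had 822, 748, 813 and 771 CPM with dexamethasone against 127, 148, 106 and 188 CPM with vehicle. The 4 dexamethasone libraries lay within a narrow range, and the log2 fold change was 2.56 (SE 0.19, adjusted p = 3.09e-07). ENSRNOG00000011800 was far more variable, with 600.1, 1092, 285 and 517 CPM with dexamethasone against 99.99, 122, 121 and 123 CPM with vehicle. Its log2 fold change was 2.54 (SE 0.37, adjusted p = 0.000134).

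The largest falls with dexamethasone were in members that were above 100 CPM in every vehicle library. ENSRNOG00000018839 had 0.813, 2.70, 4.35 and 5.45 CPM with dexamethasone against 133, 147, 110.1 and 134 CPM with vehicle, a log2 fold change of -5.20 (SE 0.44, adjusted p = 2.64e-06). ENSRNOG00000060381 had 1.08, 2.38, 16.9 and 25.9 CPM with dexamethasone against 379, 379, 242 and 271 CPM with vehicle, a log2 fold change of -4.70 (SE 0.91, adjusted p = 0.00159). For the second of these, dexamethasone libraries 3 and 4 stood well above libraries 1 and 2. In all, 99 members averaged below 100 CPM in dexamethasone lung, and 28 did so in desisobutyryl ciclesonide lung.

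**Figure D3:**
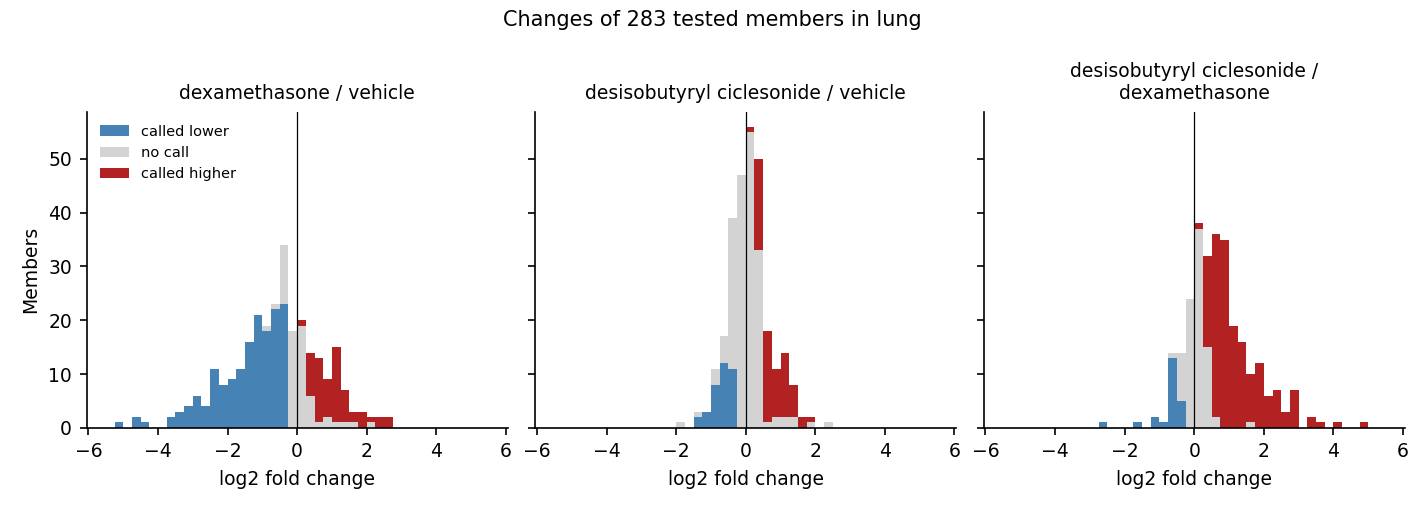
Number of tested members (vertical axis) by log2 fold change in lung (horizontal axis) for dexamethasone over vehicle, desisobutyryl ciclesonide over vehicle and desisobutyryl ciclesonide over dexamethasone, coloured by call. The median is -0.48 in the first panel, 0.08 in the second and 0.59 in the third.

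With desisobutyryl ciclesonide, most members had no call and the calls leaned upward. In lung, 65 members were higher than with vehicle (23%), against a background of 11.8%. Another 36 were lower (12.7%), against a background of 12.3%, and 182 had no call. Rises of at least 2-fold were called for 21 members (background 3.09%) and falls for 5 (background 3.46%). The median log2 change was 0.08 for members and -0.01 for all genes. Scaled by library totals alone, in place of TMM, the split was 51 higher and 48 lower. The count of lower members was 17 to 38 when single libraries were left out, with 20 without vehicle library 1, 17 without vehicle library 2, 21 without vehicle library 4, and 18 without desisobutyryl ciclesonide library 3 or 4. Among 337 identifiers chosen by the same thresholds in dexamethasone lung and liver, 138 were higher and 10 lower. Of these 337, 171 were not members, and the list was chosen on levels with a drug that acts on the same receptor, so its split is no independent support for a direction. For members without a call, an approximate 95% interval of the log2 change reached a median of 0.31 to either side. It was taken from the SE with the normal distribution, which is somewhat too narrow with 4 libraries per group.

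Among called members whose libraries did not overlap, ENSRNOG00000019368 had the largest rise here as well, with 368, 407, 579 and 578 CPM with desisobutyryl ciclesonide against the vehicle levels given above. The log2 fold change was 1.86 (SE 0.19, adjusted p = 7.04e-05). ENSRNOG00000011323 had 461, 379, 585 and 625 CPM with desisobutyryl ciclesonide against 188, 192, 161 and 191 CPM with vehicle, a log2 fold change of 1.58 (SE 0.16, adjusted p = 7.20e-05). The drug libraries of both members lay well above the vehicle libraries. With dexamethasone ENSRNOG00000011323 had 622, 452, 636 and 698 CPM, which overlapped the levels with desisobutyryl ciclesonide.

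Under the same limit to called members without overlap, the members with the largest falls with desisobutyryl ciclesonide were lower still with dexamethasone. Over all tested members, called or not, the log2 changes ran from -1.96 to 2.42. ENSRNOG00000020533 had 144, 140.0, 110.2 and 95.8 CPM with desisobutyryl ciclesonide against 396, 368, 330.3 and 360.3 CPM with vehicle, a log2 fold change of -1.48 (SE 0.17, adjusted p = 0.000108). ENSRNOG00000058645 had 867, 729, 458 and 384 CPM with desisobutyryl ciclesonide against 1638, 1804, 1475 and 1498 CPM with vehicle, a log2 fold change of -1.31 (SE 0.24, adjusted p = 0.00242). In dexamethasone lung ENSRNOG00000020533 stood at 77.1, 113, 70.7 and 82.8 CPM and ENSRNOG00000058645 at 149, 138, 112 and 91.2 CPM. Set against dexamethasone directly, desisobutyryl ciclesonide lung was higher by 0.50 on the log2 scale for ENSRNOG00000020533 (adjusted p = 0.0212, with overlapping libraries) and by 2.30 for ENSRNOG00000058645 (adjusted p = 1.59e-05).

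The 2 drugs, given at different doses, differed widely over the members in lung. The vehicle libraries that chose the members enter this comparison only through the shared scaling and spread. The choice still bears on it, because identifiers that met the thresholds with a drug but not with vehicle are not members. There were 171 of these with dexamethasone and 61 with desisobutyryl ciclesonide, so the split is not free of the rule. Desisobutyryl ciclesonide lung was higher than dexamethasone lung for 171 members (60.4%), against a background of 25%, and lower for 23 (8.13%), against 24.4%. For 89 members there was no call, and the same approximate 95% interval of their log2 difference reached a median of 0.30 to either side. Differences of at least 2-fold were called for 84 members upward (background 9.73%) and 4 downward (background 8.64%). The median log2 difference was 0.59 for members and 0.02 for all genes. The doses were 1.25 mg/kg of desisobutyryl ciclesonide and 0.1 mg/kg of dexamethasone, so the comparison is of these treatments and not of equal amounts.

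Among called members without overlap, ENSRNOG00000018839 and ENSRNOG00000003984 had the largest differences in favour of desisobutyryl ciclesonide. ENSRNOG00000018839 had 69.4, 117, 107 and 71.3 CPM with desisobutyryl ciclesonide against the few CPM with dexamethasone given above, a log2 difference of 4.77 (SE 0.43, adjusted p = 1.07e-05). ENSRNOG00000003984 had 212, 236, 99.8 and 62.6 CPM with desisobutyryl ciclesonide against 10.8, 3.39, 16.3 and 3.87 CPM with dexamethasone, a log2 difference of 4.15 (SE 0.59, adjusted p = 0.000260). Vehicle lung held 182, 144, 201 and 181 CPM of ENSRNOG00000003984, within the range of the desisobutyryl ciclesonide libraries.

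ENSRNOG00000011800 and ENSRNOG00000014182 had the largest differences the other way. ENSRNOG00000011800 had 98.0, 78.4, 122 and 145 CPM with desisobutyryl ciclesonide, which overlapped vehicle, and its log2 difference from dexamethasone was -2.51 (SE 0.37, adjusted p = 0.000227). ENSRNOG00000014182 had 199, 297, 249 and 229.9 CPM with desisobutyryl ciclesonide against 403, 736, 837 and 845 CPM with dexamethasone, a log2 difference of -1.53 (SE 0.27, adjusted p = 0.000695). Of the abundant members, ENSRNOG00000010761 was lower with desisobutyryl ciclesonide than with dexamethasone by a log2 difference of -0.84 (SE 0.20, adjusted p = 0.00409). ENSRNOG00000011177 and ENSRNOG00000005825 had no call, at 0.13 (SE 0.18) and 0.06 (SE 0.16).

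Lung libraries of dexamethasone replicates 3 and 4 stood apart from the other lung libraries. A set of 26 genes, none of them members (0 of 26), was at least 4-fold higher in both and summed to 3034 and 9000 CPM there, against at most 229 CPM in any other lung library. Without those libraries, dexamethasone over vehicle gave 142 lower and 58 higher members, and desisobutyryl ciclesonide over dexamethasone gave 152 higher and 29 lower members. The part of the 26 genes in the members' values was not tested.

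In liver, the members were scarce but mostly measurable. Their summed share of liver counts was 0.232% ± 0.0150 with dexamethasone, 0.273% ± 0.0236 with desisobutyryl ciclesonide and 0.287% ± 0.0221 with vehicle (SD, n = 4 each). The median member had 3.34 CPM, 5.20 CPM and 5.87 CPM in dexamethasone, desisobutyryl ciclesonide and vehicle liver. Members averaging below 1 CPM numbered 62 with dexamethasone, 53 with desisobutyryl ciclesonide and 51 with vehicle. No count at all was found for 13, 9 and 11 members in the 4 liver libraries of those treatments. The filter on low counts was passed by 249 members, and 35 were not tested in liver.

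With dexamethasone the tested members also leaned downward in liver. A lower level was called for 102 members, against a background of 24.9%, a higher level for 37, against a background of 22.5%, and 110 had no call. With library totals alone the split was 31 higher and 130 lower, where the median of all genes shifted by -0.23 on the log2 scale. The rule also used the vehicle liver levels, and asking for a low one leans toward rises. Counts against vehicle liver thus only describe the members. With desisobutyryl ciclesonide over vehicle, 2 members were called higher (background 2.09%) and 5 lower (background 2.43%) in liver, shares no larger than those of all genes. Desisobutyryl ciclesonide over dexamethasone gave 84 higher members (background 23.8%) and 42 lower (background 22.5%). With library totals alone that last split was 111 higher and 29 lower, where the median of all genes shifted by 0.19 on the log2 scale.

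The 2 largest rises in dexamethasone liver were at low levels. A rise of 3.31 on the log2 scale in ENSRNOG00000008676 was at a higher level and is given below. ENSRNOG00000019368 had 5.07, 15.5, 11.8 and 12.9 CPM in dexamethasone liver against 1.20, 0.683, 1.34 and 1.09 CPM in vehicle liver, a log2 fold change of 3.63 (SE 0.41, adjusted p = 8.43e-06). It was thus called higher with dexamethasone in lung and in liver. ENSRNOG00000062101 had 3.38, 5.72, 3.94 and 5.45 CPM in dexamethasone liver against 0.538, 0.455, 0.724 and 0.288 CPM in vehicle liver, a log2 fold change of 3.43 (SE 0.41, adjusted p = 1.11e-05). In lung it had 735, 523, 618 and 535 CPM with dexamethasone against 418, 482, 379.6 and 480.2 CPM with vehicle, a log2 fold change of 0.55 (adjusted p = 0.00307).

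The largest falls in dexamethasone liver left almost no counts. ENSRNOG00000027767 had 0.0649, 0.162, 0 and 0 CPM with dexamethasone against 2.69, 4.78, 2.73 and 0.978 CPM with vehicle, a fitted log2 fold change of -5.29 (adjusted p = 2.86e-05) that rests on very few counts. ENSRNOG00000057221 had 0.520, 0.108, 0.0428 and 0.0567 CPM against 2.63, 5.23, 2.84 and 2.01 CPM, a log2 fold change of -3.96 (SE 0.59, adjusted p = 8.08e-05). Both also fell in lung, to 31.8, 15.1, 27 and 19.9 CPM with dexamethasone against 136, 123, 108 and 117 CPM with vehicle for ENSRNOG00000027767 (log2 fold change -2.27, adjusted p = 2.30e-06). ENSRNOG00000057221 had 18.8, 5.14, 26.1 and 14.9 CPM in dexamethasone lung against 447, 499, 373 and 422 CPM in vehicle lung (log2 fold change -4.66, adjusted p = 1.21e-05).

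Few members were called in liver with desisobutyryl ciclesonide. For the 242 tested members without a call, the approximate 95% interval of the log2 change reached a median of 0.53 to either side. Smaller changes may thus have gone uncalled. ENSRNOG00000052873 had 3.88, 8.75, 4.97 and 4.96 CPM with desisobutyryl ciclesonide against 21.6, 22.4, 26.3 and 31.1 CPM with vehicle, a log2 fold change of -2.13 (SE 0.23, adjusted p = 8.64e-05). ENSRNOG00000011800 had 2.26, 3.74, 2.51 and 1.53 CPM against 6.34, 5.69, 5.12 and 7.996 CPM, a log2 fold change of -1.29 (SE 0.27, adjusted p = 0.0147). The liver libraries of both members did not overlap between the treatments. The only 2 members called higher were ENSRNOG00000062101, with 1.22, 0.748, 1.93 and 1.91 CPM with desisobutyryl ciclesonide (log2 fold change 1.59, adjusted p = 0.0409), and ENSRNOG00000019689, with 22.1, 17.0, 22.97 and 30.8 CPM with desisobutyryl ciclesonide against 14.8, 15.1, 9.97 and 11.3 CPM with vehicle (log2 fold change 0.93, adjusted p = 0.0168). Neither call held under every alternative, with adjusted p up to 0.122 for ENSRNOG00000062101 and up to 0.0611 for ENSRNOG00000019689.

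The largest liver differences between the drugs were at low levels too, apart from that of ENSRNOG00000008676. Its log2 difference of -3.17 came with a higher level in dexamethasone liver and is described below with the lung-over-liver ratios. ENSRNOG00000050539 had 17.0, 25.9, 21.0 and 21.3 CPM in desisobutyryl ciclesonide liver against 1.82, 0.108, 1.37 and 1.13 CPM in dexamethasone liver, a log2 difference of 4.11 (SE 0.43, adjusted p = 1.01e-05). ENSRNOG00000027767 had 2.90, 2.30, 1.93 and 1.79 CPM in desisobutyryl ciclesonide liver, a log2 difference from dexamethasone of 5.01 (SE 0.71, adjusted p = 5.59e-05). ENSRNOG00000023546 went the other way, with 1.56, 1.67, 1.58 and 0.993 CPM in desisobutyryl ciclesonide liver against 15.6, 11.5, 13.4 and 7.72 CPM in dexamethasone liver, a log2 difference of -3.27 (SE 0.36, adjusted p = 7.58e-06). In lung ENSRNOG00000023546 had no call in any comparison, with 164 to 236 CPM with dexamethasone, 165 to 213 CPM with desisobutyryl ciclesonide and 118 to 211 CPM with vehicle.

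Lung was set against liver in the drug libraries, which the rule did not use. A call here means a difference of any size, not one of 16-fold. The members were chosen for a large ratio between the same tissues, so a higher call was likely beforehand. The backgrounds are of genes not chosen that way. The fit had no term pairing same-numbered lung and liver libraries. In dexamethasone libraries lung was higher than liver for 279 of 283 tested members (background 42.9%) and lower for 1 (background 32.7%), with 3 without a call. In desisobutyryl ciclesonide libraries lung was higher for 282 (background 38.5%) and lower for 0 (background 33.4%), with 1 without a call. Those calls use TMM scaling, while the ratios of mean levels are on library totals. The median lung-over-liver ratio was 33.7 with dexamethasone and 39.1 with desisobutyryl ciclesonide. A ratio of at least 4 was kept by 282 of the 284 members with dexamethasone and by 283 with desisobutyryl ciclesonide. Both thresholds of the rule were still met by 166 members with dexamethasone (58.5%) and by 239 with desisobutyryl ciclesonide (84.2%). With dexamethasone 99 members missed the lung level, 49 missed the ratio and 30 of these missed both. With desisobutyryl ciclesonide the numbers were 28, 20 and 3.

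Other genes met the thresholds in their stead. With dexamethasone 337 identifiers met both, of which 171 were not members, so members made up 49.3% of the dexamethasone list. With desisobutyryl ciclesonide 300 met both, and 61 were not members. The 7 identifiers left out by rule are not members in any of these counts.

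**Figure D4:**
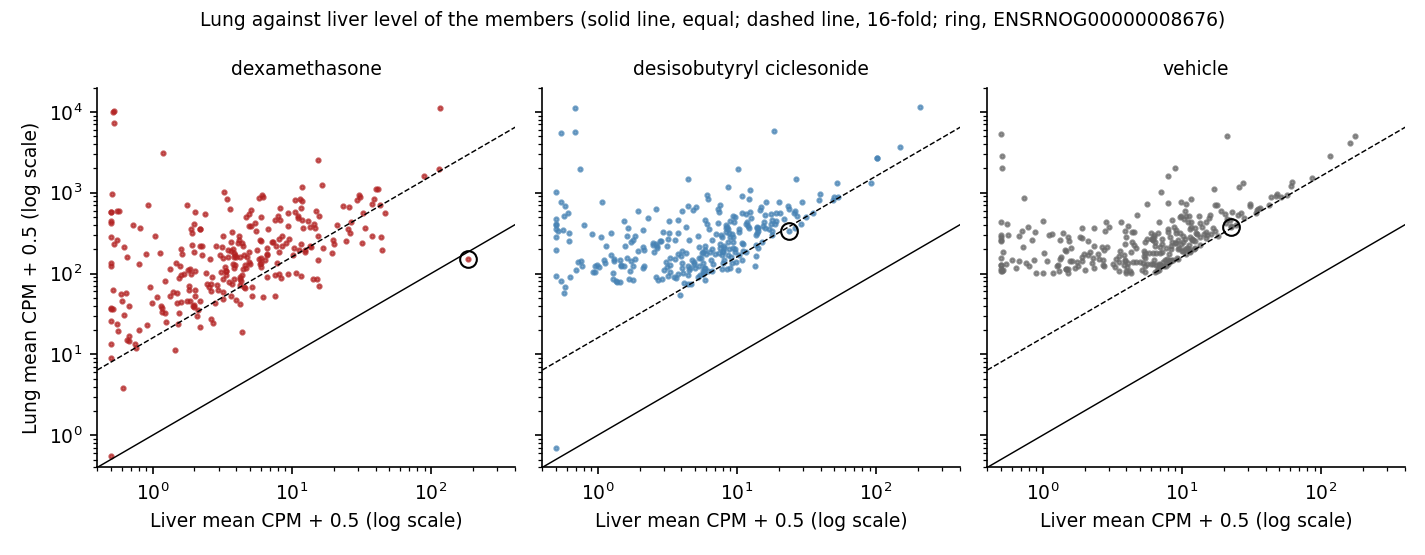
Mean lung level (vertical axis) against mean liver level (horizontal axis) of each member, both as CPM plus 0.5 on log scales, in dexamethasone, desisobutyryl ciclesonide and vehicle libraries, with a solid line at equal levels, a dashed line at 16-fold and a ring around ENSRNOG00000008676. In vehicle libraries all members lie on or above the dashed line by choice, and with dexamethasone the ringed member lies below the solid line.

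The plot of lung against liver shows the mean levels of the ringed member, ENSRNOG00000008676, crossing the line of equal levels with dexamethasone. Its lung and liver libraries with dexamethasone overlapped in CPM. In liver it had 191, 186, 156 and 206 CPM with dexamethasone, 18.3, 24.7, 17.4 and 32.4 CPM with desisobutyryl ciclesonide, and 17.7, 25.5, 26.01 and 18.6 CPM with vehicle. In lung it had 143, 146, 169.7 and 153 CPM with dexamethasone, 341, 345, 358 and 309.9 CPM with desisobutyryl ciclesonide, and 388, 369, 388 and 377 CPM with vehicle. The dexamethasone libraries stood apart from the other treatments in both tissues, in opposite directions. The log2 fold change of dexamethasone over vehicle was 3.31 in liver (SE 0.24, adjusted p = 3.02e-07) and -1.22 in lung (SE 0.07, adjusted p = 5.77e-08). The lung change less the liver change was -4.51 (SE 0.26, adjusted p = 9.21e-11). Such a difference between tissues, in either direction, was called for 28.7% of all genes with dexamethasone and for 3.39% with desisobutyryl ciclesonide. Its lung-over-liver ratio of mean levels was 0.827 with dexamethasone, 14.3 with desisobutyryl ciclesonide and 17.0 with vehicle. Desisobutyryl ciclesonide liver was lower than dexamethasone liver by a log2 difference of -3.17 (SE 0.23, adjusted p = 4.20e-07). The call of lung below liver rests on the scaling across tissues. With TMM the log2 difference in dexamethasone libraries was -1.65 (adjusted p = 1.72e-08), and with library totals alone it was -0.27 (adjusted p = 0.101), where the median of all genes shifted by 1.36.

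No other member had a ratio of mean levels below 1 with dexamethasone, and 0 members had one with desisobutyryl ciclesonide. ENSRNOG00000004610 had 2.49, 4.98, 30.8 and 36.0 CPM in dexamethasone lung against 9.87, 0.486, 1.11 and 3.97 CPM in dexamethasone liver, with overlapping libraries and no call (log2 difference 0.93, adjusted p = 0.324). In vehicle lung it had 143, 150.2, 162 and 127 CPM, and its fall with dexamethasone was -2.90 on the log2 scale (adjusted p = 0.00530). The lowest ratios were 1.10 with dexamethasone, after the ringed member, and 1.41 with desisobutyryl ciclesonide, both of ENSRNOG00000003580, which had at most 0.820 CPM in lung and 0 in liver with those treatments. With desisobutyryl ciclesonide the next lowest were 9.09 for ENSRNOG00000020533 and 10.7 for ENSRNOG00000013147. Lung was still called higher than liver for both in those libraries, with log2 differences of 2.00 (adjusted p = 2.17e-06) and 2.24 (adjusted p = 1.28e-10). These differences are on TMM scaling and the ratios on library totals, so they are not the same quantity. With library totals alone, the median log2 difference of all genes in those libraries shifted by 1.24.

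The spread between libraries of one treatment differed widely among members. The median coefficient of variation over lung libraries was 20.04% with dexamethasone, 14.9% with desisobutyryl ciclesonide and 10.2% with vehicle. It exceeded 50% for 23 members with dexamethasone, 10 with desisobutyryl ciclesonide and 8 with vehicle. Of the 8 members that varied this much in vehicle lung, 7 were highest in vehicle library 3 and 6 were highest in desisobutyryl ciclesonide library 4. For 7 of the 8, dexamethasone libraries 3 and 4 were the 2 highest of their group, and 6 of the 8 had all 3 features. Without vehicle library 3, 5 of the 8 would have missed the lung threshold. The rule thus favoured members high in that library, and the first feature is a description only.

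ENSRNOG00000025757 shows the pattern. It had 0.361, 277, 1531 and 2062 CPM with dexamethasone, 301, 127, 392 and 3208 CPM with desisobutyryl ciclesonide, and 119.7, 146, 1222 and 164 CPM with vehicle. ENSRNOG00000008176 had 0, 0.159, 459 and 661 CPM with dexamethasone, 1.18, 0, 0.854 and 1601 CPM with desisobutyryl ciclesonide, and 0, 0, 505 and 1.39 CPM with vehicle. High and low libraries occurred within every treatment, and neither member was called between treatments. The 8 were picked after their values were seen.

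**Figure D5:**
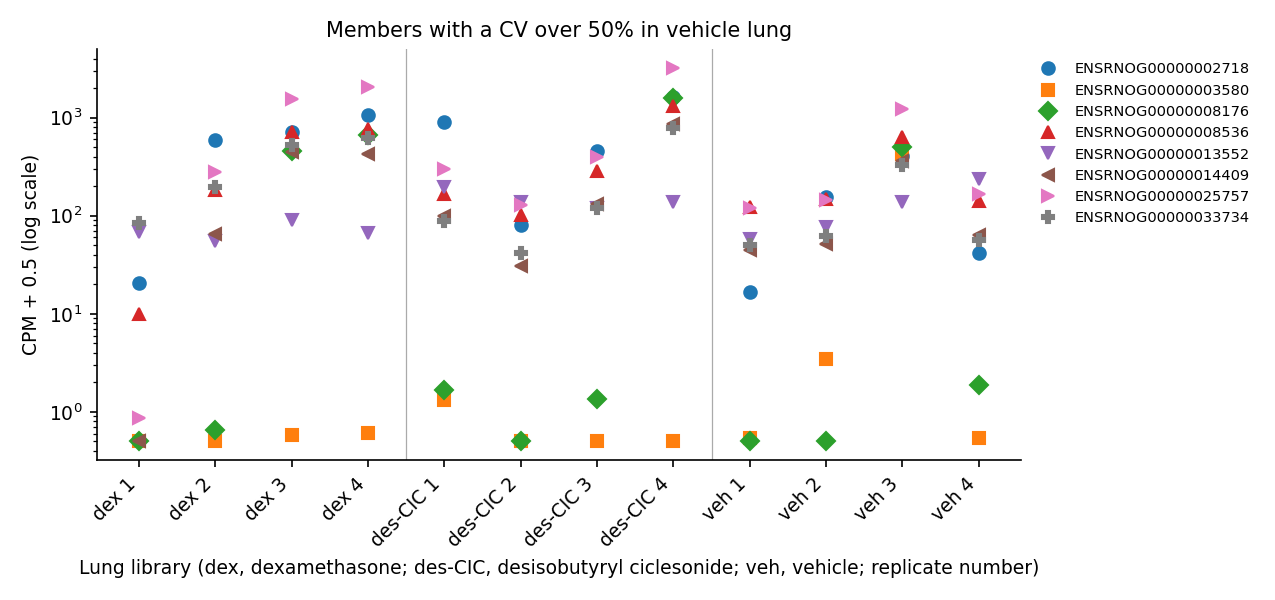
Levels (CPM plus 0.5, log scale, vertical axis) of the 8 members whose coefficient of variation exceeded 50% in vehicle lung, in each lung library (horizontal axis) of dexamethasone (dex), desisobutyryl ciclesonide (des-CIC) and vehicle (veh). For 6 of the 8 members, dexamethasone libraries 3 and 4, desisobutyryl ciclesonide library 4 and vehicle library 3 are the high ones.

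The plot of variable members also shows how far the rule can rest on 1 library. ENSRNOG00000003580 had 0.0472, 2.98, 428 and 0.0433 CPM in the vehicle lung libraries, at most 0.108 CPM in dexamethasone lung, at most 0.820 CPM in desisobutyryl ciclesonide lung and 0 in every liver library. It is a member through vehicle library 3 alone and did not pass the filter on low counts. Without that library, 5 of the 8 variable members averaged below 100 CPM. A list chosen without it, added after the data were seen, held 279 identifiers, of which 273 were members, and its counts of calls in lung were within 1 of those given above. The markers or cells behind these libraries could not be looked up by name, and their part in these values was not tested.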

How the data were processed

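The deposited files hold the authors' raw counts per gene, 1 file for each of 24 libraries of lung and liver RNA, in 6 groups of 4 taken from the sample titles. Libraries were polyadenylated, directional dUTP libraries, per the labels' protocols. Tools named are cutadapt, HISAT2 and HTSeq with the build mRatBN7.2, per the submitters' processing notes. Versions, settings and the use of strand in counting are not given in the sources used here, so values of overlapping genes, antisense genes and near-identical copies are uncertain. Summary rows for reads not assigned to a gene, 16.8% to 31.8% of entries, were kept out of totals and tests.

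Levels are CPM on library totals, as in the rule for members. Tests used edgeR 4.0.16 with limma 3.58.1 in R 4.3.3: the default filter on low counts, TMM scaling, the robust quasi-likelihood F-test and Benjamini-Hochberg adjustment over all genes at 0.05. The 12 libraries of a tissue shared 1 fit with 1 mean per treatment, and all 24 libraries were used for lung against liver and for the difference between tissues. The lung fit of dexamethasone over vehicle was tried on simulated counts with the same spread for every gene. That trial covered neither liver nor comparisons across tissues, and its changed genes were not low in counts. All 36 pairs of libraries within groups differed by more than counting error (lowest chi-square per degree of freedom 11.0). Counting error limits members of a few CPM in liver.

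The members, lists and tests were chosen with earlier results of these data known. Identifiers were named by rule: the largest changes among called members whose libraries did not overlap, and the lowest lung-over-liver ratios. For want of gene names this was shortened to 2 each way per comparison, and to the 4 most abundant members of vehicle lung and the 4 highest of dexamethasone lung. No gene list by name could be used.

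The 12 same-numbered lung and liver pairs deviated together from their group means (Pearson r 0.112 to 0.324 over 13245 genes), and all 12 lung libraries correlated best with the liver library of their own number, so the numbers were taken to pair tissues. The labels do not say so. The main fits for lung against liver and for the difference between tissues had no term for this pairing, so their adjusted p-values leave it out. Alternatives were other scalings, DESeq2 1.42.0, no filter, a replicate block, each replicate left out, other thresholds, and lists from other libraries.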

Additional observations from a re-analysis of the deposited data

Results flagged for a closer look

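The levels of the named members, where a group averaged at least 1 CPM, and the members' summed share were examined in 133 groups of 4 libraries for a library far from the other 3, and 10 were found. Chance flags about 1 in 20 groups. In vehicle lung, replicate 3 was high for ENSRNOG00000003580, at 428.3 CPM against 0.0433 to 2.98 CPM in the others. The same library was low for ENSRNOG00000010761, at 1523 CPM against 2144 to 2188 CPM, and for ENSRNOG00000011323, at 160.8 CPM against 188 to 192 CPM. In vehicle lung ENSRNOG00000011800 was low in replicate 1, at 99.99 CPM against 121 to 123 CPM, and ENSRNOG00000052873 was low in replicate 2, at 1034 CPM against 1219.9 to 1252 CPM. In dexamethasone lung, replicate 2 was low for ENSRNOG00000016281, at 1816 CPM against 1971 to 1993 CPM. It was high for ENSRNOG00000023546, at 236.3 CPM against 164 to 175 CPM, and replicate 3 was high for ENSRNOG00000052873, at 627.9 CPM against 528 to 539.7 CPM. In liver, ENSRNOG00000023546 was low in desisobutyryl ciclesonide replicate 4, at 0.9926 CPM against 1.56 to 1.67 CPM. ENSRNOG00000058645 was high in dexamethasone replicate 4 of liver, at 2.837 CPM against 0.300 to 0.714 CPM.

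The lung change less the liver change was tested for the named members in 38 cases, and 10 passed an adjusted p of 0.05 in edgeR's quasi-likelihood test over all genes. These were 8 of 19 with dexamethasone, where 28.7% of all genes passed, and 2 of 19 with desisobutyryl ciclesonide, where 3.39% passed. Most of the members were named for large changes in 1 tissue, so these counts say nothing about the members as a set. With dexamethasone the difference on the log2 scale was 3.36 for ENSRNOG00000011800 (lung 2.54, liver -0.81, adjusted p = 1.09e-05). It was 3.13 for ENSRNOG00000027767 (lung -2.27, liver -5.29, adjusted p = 0.00492) and 1.64 for ENSRNOG00000005825 (lung 1.25, liver -0.37, adjusted p = 0.00134). Differences in the other direction were -4.51 for ENSRNOG00000008676 (lung -1.22, liver 3.31, adjusted p = 9.21e-11), -3.07 for ENSRNOG00000023546 (lung 0.19, liver 3.27, adjusted p = 5.07e-06) and -2.87 for ENSRNOG00000062101 (lung 0.55, liver 3.43, adjusted p = 4.97e-06). Smaller ones were -1.11 for ENSRNOG00000013147 (lung -1.26, liver -0.13, adjusted p = 0.00231) and -0.696 for ENSRNOG00000016281 (lung -0.97, liver -0.26, adjusted p = 0.0186), the last of which missed the threshold with library totals alone (adjusted p = 0.0502). With desisobutyryl ciclesonide the difference was -1.68 for ENSRNOG00000020533 (lung -1.48, liver 0.16, adjusted p = 0.0221) and 1.83 for ENSRNOG00000052873 (lung -0.26, liver -2.13, adjusted p = 0.000404).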

How the results depend on the processing

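Of 810 alternative values for 84 results on named members, 783 kept direction and side of the threshold, 12 lost the call, 7 gained one and 8 changed sign without any call. The 8 were ENSRNOG00000016281 for the desisobutyryl ciclesonide difference between tissues (0.0534 with RLE scaling, 0.0533 with DESeq2) and over vehicle in lung (0.0115 without vehicle replicate 2, 0.0130 without desisobutyryl ciclesonide replicate 4, with a range of -0.15 to 0.0130 over single replicates left out), ENSRNOG00000005825 between the drugs (-0.0728 without dexamethasone replicate 4, -0.0285 without desisobutyryl ciclesonide replicate 4, with a range of -0.0728 to 0.19, and -0.106 without dexamethasone replicates 3 and 4), and ENSRNOG00000004610 for lung over liver (-1.39 without those 2). The cause was not tested.

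Counts of called members moved by over 1.5 times in these cases. With library totals alone, 0 members were lower in dexamethasone lung than liver. In liver, desisobutyryl ciclesonide over vehicle gave 5 higher and 9 lower members with DESeq2, and 0 to 3 higher ones when single replicates were left out (1 without vehicle replicate 2 or desisobutyryl ciclesonide replicate 3, 0 without vehicle replicate 3 or 4 or desisobutyryl ciclesonide replicate 4). In lung the same comparison gave 17 to 38 lower members. With members at 50 CPM or more (438 identifiers), there were 90 higher with dexamethasone in lung, 55 lower with desisobutyryl ciclesonide, 52 lower between the drugs, and 433 and 436 higher in lung than liver with dexamethasone and desisobutyryl ciclesonide. With 200 CPM (165 identifiers), lung gave 92 lower with dexamethasone, 43 higher and 18 lower with desisobutyryl ciclesonide, and 101 higher between the drugs. Liver then gave 22 higher and 67 lower with dexamethasone, 3 lower with desisobutyryl ciclesonide, and 52 higher and 25 lower between the drugs, and 164 and 165 were higher in lung than liver with dexamethasone and desisobutyryl ciclesonide. The last lists differ in size by construction. Lists chosen in the libraries of the other drug gave 93 higher with dexamethasone in lung, and 138 higher and 10 lower with desisobutyryl ciclesonide.

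Same-numbered libraries of a tissue did not deviate together consistently across treatments (r over 0.1 in 7 of 24 pairs, most of them in lung). The range of r was -0.256 to 0.275 in lung and -0.111 to 0.113 in liver. With the replicate number as a block, lung gave 56 higher and 168 lower members with dexamethasone, 64 and 37 with desisobutyryl ciclesonide, and 173 and 22 between the drugs. In liver the replicate block left 1 member higher with desisobutyryl ciclesonide. For lung against liver, where the numbers do pair, the block gave 281 higher and 1 lower member with dexamethasone and 283 and 0 with desisobutyryl ciclesonide. Depth limits the liver values, where 35 members could not be tested.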
